A study of Mus musculus with 5 samples.

Results

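The genes described here are 10 receptors and transcription factors of the myeloid lineage, chosen by name from a table of 14462 gene rows, and all 10 had a row. They comprise 4 receptor chains for colony-stimulating factors (Csf3r, Csf2ra, Csf2rb and Csf1r), 4 members of the C/EBP family (Cebpa, Cebpb, Cebpd and Cebpe), and the factors Spi1, which encodes PU.1, and Gfi1. RNA was sequenced from CD45-sorted lung cells of mice with tumours of MC38, a mouse colon adenocarcinoma line, which the labels write as MC38/MC38 tumors. CD45 is a surface protein of nearly all leukocytes. Lungs were taken 3 days after tumour irradiation, and the treatment label gives 3 libraries of the control group (ctrl) and 2 of the irradiated group (IR). All 5 libraries carry the same tumour, tissue and sort labels. Strain, age, sex, radiation dose and the handling of the control mice were not found in the labels, which also do not say whether a library is 1 animal or a pool, so p-values measure only the spread between these libraries, which may be technical.

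Colony-stimulating factor receptors carry the growth and survival signals of myeloid cells. The product of Csf3r binds G-CSF and serves granulocytes, that of Csf1r binds M-CSF and IL-34 and serves monocytes and macrophages, and Csf2ra with the shared beta chain Csf2rb forms the GM-CSF receptor, which alveolar macrophages depend on. PU.1 and C/EBP alpha set up the myeloid programme in progenitors, C/EBP epsilon and GFI1 act in granulocyte precursors, and C/EBP beta and delta are induced in mature myeloid cells during inflammation and emergency granulopoiesis.

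The DNA before the start sites is shown for Cebpb and Csf3r, which rose in IR, and for Cebpa, a relative of Cebpb that did not pass the test. RefSeq (GRCm38.p6) held a start for 5 of the 10 members, in 6 windows. The 250 bases before each start were searched on both strands for GAGGAA (PU.1 core), TTGCNNAA (C/EBP core), TTCNNNGAA (STAT), TGACG (cyclic AMP response element core) and TATAAA (a core promoter element). The Cebpb stretch, chr2:167688665-167688914 on the plus strand, held TGACG 3 times, at 180, 53 and 7 bases before the start, the first on the minus strand. The Cebpa stretch, chr7:35119043-35119292 on the plus strand, held no TGACG and 1 TATAAA. The Csf3r stretch, chr4:126024561-126024590 on the plus strand, is the 30 bases around its single GAGGAA, at 86 bases before the RefSeq start and within a longer Csf3r transcript of GENCODE vM21. Capitals mark TGACG or its reverse complement and TATAAA in the first 2 sequences and GAGGAA in the last.
Cebpb: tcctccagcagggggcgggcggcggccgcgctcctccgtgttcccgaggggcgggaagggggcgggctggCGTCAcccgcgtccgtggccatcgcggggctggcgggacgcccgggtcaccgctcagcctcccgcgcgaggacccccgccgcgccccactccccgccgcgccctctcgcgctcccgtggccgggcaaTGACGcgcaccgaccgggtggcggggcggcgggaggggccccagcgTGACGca
Cebpa: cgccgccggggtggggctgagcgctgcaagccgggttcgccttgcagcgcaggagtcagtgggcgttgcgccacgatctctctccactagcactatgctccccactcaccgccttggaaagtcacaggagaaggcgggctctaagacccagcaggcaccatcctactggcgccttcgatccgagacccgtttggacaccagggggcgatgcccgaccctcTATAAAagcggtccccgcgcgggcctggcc
Csf3r: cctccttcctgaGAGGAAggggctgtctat
Of all 32851 windows, 17.8% held TGACG, 12.4% TATAAA, 23.3% GAGGAA, 9.56% TTGCNNAA and 7.02% TTCNNNGAA. Csf2ra, which did not pass the test either, held GAGGAA 2 times and TGACG 3 times, and 1 of the Gfi1 windows held TTGCNNAA. These matches describe letters and were not tested as binding sites.

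The deposited values are read counts per gene after scaling by the authors, and are called scaled read counts here. Divided by a single step per library they returned nearly whole numbers, which gave library totals of 8557486, 8013744 and 10172267 reads in ctrl and 8070787 and 10011128 in IR. IR replicate 2 stood apart on the first principal component (131.5, against -51.9 to -6.00 in the other 4 libraries), so the log2 fold changes of the members are also given without it. Ptprc, which encodes CD45, lay between 15543 and 15842 in ctrl and at 17369 and 27246 in IR replicates 1 and 2. Markers of neutrophils summed to 19484 to 35206 in ctrl and to 48964 and 98038 in IR replicates 1 and 2. Of the 10 tested, 3 rose by limma and 4 by edgeR, and none of the 10 was at 0 in any library. All 10 lay above all ctrl libraries in both IR libraries, where 15.2% of genes tested did so. At an unadjusted p under 0.05 by limma 10 were higher, where 1912 of 12777 genes had such a p in either direction. Markers of lung epithelium, which the sort should remove, summed to 22381 to 26258 in ctrl and to 116460 and 56294 in IR. That sum is mostly Scgb1a1, a club cell secretory protein gene, at 18790 to 23115 in ctrl and 103972 and 50989 in IR. Scgb1a1 and Scgb3a2 rose, and the other 6 of the 8 did not pass: Sftpc, Sftpa1, Krt8 and Ager overlapped between the groups, Sftpb lay higher in both IR libraries, and Epcam lay lower (133 to 185 in ctrl, 45.8 and 74.8 in IR). The 6 T cell markers summed to 2988 to 3111 in ctrl and 2005 and 1675 in IR, with Cd3g called lower and 4 of 6 below all ctrl libraries in both IR libraries, and the 5 B cell markers to 4306 to 7727 in ctrl and 4429 and 3499 in IR, with Ebf1 called lower. Of 10 alveolar macrophage markers 0 passed by limma (4 lower at an unadjusted p under 0.05, 0 by edgeR), and 5 lay below all ctrl libraries in both IR libraries, where 16.3% of genes tested did so. The 6 classical monocyte markers summed to 15569 to 16272 in ctrl and 20907 and 20594 in IR, and 0 passed by limma. The 6 nonclassical monocyte markers summed to 10951 to 14291 in ctrl and 14169 and 15928 in IR, with 1 called higher. The 6 interstitial macrophage markers summed to 5027 to 6694 in ctrl and 5164 and 3230 in IR, and 0 passed. The part of these cell types in the results below was not tested.

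Among the 10 members, 5 rose in IR, 0 fell and 5 did not pass, where 1.5% of the 12777 genes tested were called, 1.14% as higher and 0.36% as lower (limma, Benjamini-Hochberg adjusted p under 0.05 over all genes). The 5 were the receptor genes Csf3r and Csf2rb and the transcription factor genes Cebpb, Cebpd and Spi1. For 0 members was a fall seen at an unadjusted p under 0.05 by limma, or at an adjusted p by edgeR. In 7 members both IR libraries lay above all 3 ctrl libraries, which held for 15.2% of genes tested; the 7 were the 5 called members with Csf2ra and Cebpe. The median log2 fold change was 0.82 over the members and -0.05 over all genes tested. Abundant genes pass more easily: of the 1482 genes with a mean of at least 1000, 6.34% were called and 5.67% rose, and 6 members were of that kind, of which Csf3r, Csf2rb, Cebpb and Spi1 rose. In bulk RNA, a larger share of the cells that express a gene cannot be told apart from more RNA per cell.

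**Figure D1:**
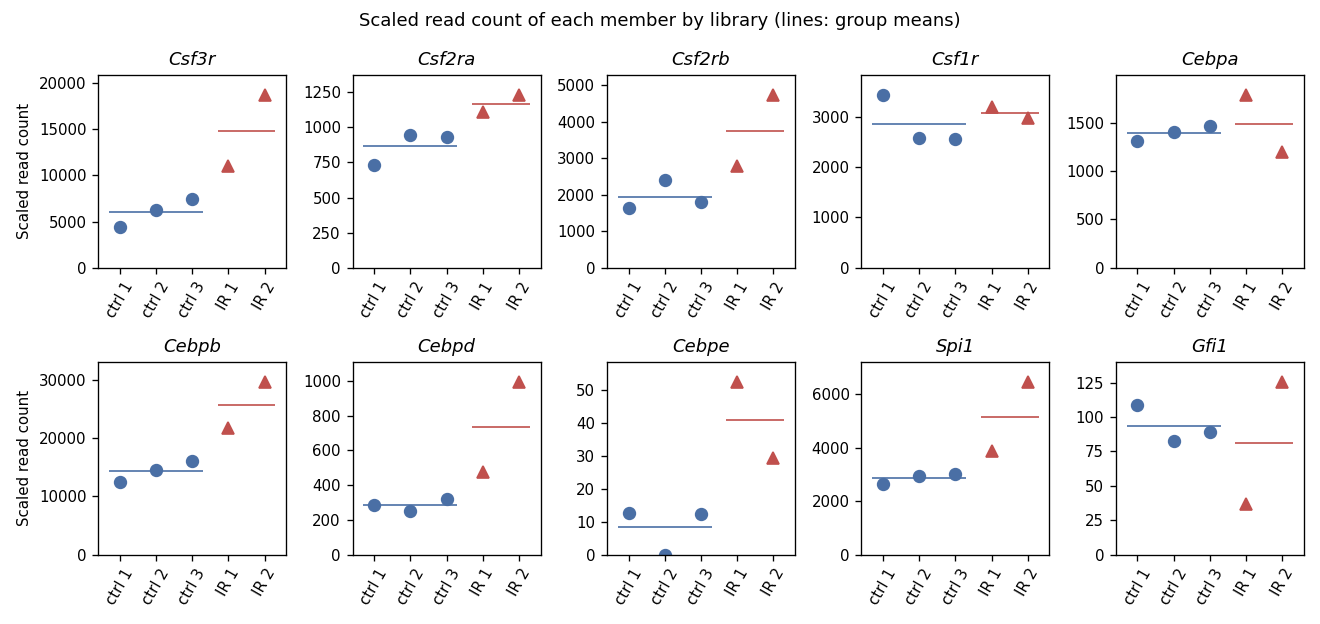
Scaled read count (vertical axis, from 0) of each of the 10 members in each library; circles are the 3 ctrl libraries, triangles the 2 IR libraries, and lines the group means. In 7 members both triangles lie above all circles, and in Csf1r, Cebpa and Gfi1 they overlap.

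Csf3r, at chromosome 4 from 126024550 to 126044440, had the smallest p of the members. It was 4403, 6286 and 7465 in ctrl replicates 1 to 3 and 11008 and 18622 in IR replicates 1 and 2. The lowest IR library thus lay well above the highest ctrl library, although the ctrl values themselves spanned a wide range. Against the ctrl mean the rise was 1.82-fold in IR replicate 1 and 3.08-fold in IR replicate 2. The log2 fold change was 1.28 ± 0.24 (SE, with an adjusted p of 0.0152 by limma) and 1.30 by edgeR on the recovered reads (adjusted p = 0.0229). The limma call was lost without the mean trend (adjusted p = 0.486). Csf3r did not pass limma without ctrl replicate 1 (adjusted p = 0.118), ctrl replicate 2 (0.0995) or IR replicate 2 (0.0656), where the log2 fold change was 0.90, and it passed without either of the others (0.0103 without ctrl replicate 3 and 0.000705 without IR replicate 1). The neutrophil markers above were higher in the same libraries, and their part in the change was not tested.

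Csf2rb, the signalling beta chain shared by the receptors for GM-CSF, IL-3 and IL-5, lies on chromosome 15 from 78325752 to 78353847. It was 1628, 2414 and 1790 in ctrl and 2776 and 4722 in IR. IR replicate 1 lay only a little above ctrl replicate 2, and IR replicate 2 was far above both. Its log2 fold change was 0.92 ± 0.23 (SE, with an adjusted p of 0.0460 by limma). The call was lost with edgeR (adjusted p = 0.0630), and with limma without ctrl replicates 1, 2 or 3 (0.300, 0.110 and 0.192). With limma it was also lost with median-of-ratios factors (0.0506), without a filter (0.0600) and with a minimum of 50 (0.0528). The same held with a pseudocount of 0.5 (0.0528), with robust estimation off (0.0701) and without the mean trend (0.527). The log2 fold change was 0.53 without IR replicate 2 and 1.30 without IR replicate 1. The neighbouring paralogue Csf2rb2, which encodes the IL-3-specific beta chain of the mouse, is close in sequence, so the split of reads between them is uncertain. Csf2rb2 was 570, 640 and 572 in ctrl and 655 and 1023 in IR, and the fitted log2 difference was 0.46 ± 0.25 (SE, with an adjusted p of 0.399 by limma).

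Csf2ra, the GM-CSF-binding alpha chain, lies on chromosome 19 from 61223957 to 61228429. It was 729, 944 and 932 in ctrl and 1110 and 1227 in IR. The groups did not overlap and the IR libraries were close to each other, but the change did not pass, with a log2 fold change of 0.44 ± 0.23 (SE, 95% interval -0.03 to 0.90, with an adjusted p of 0.366 by limma). Without IR replicate 2 it was 0.36 (limma adjusted p = 0.718). The ratio of Csf2rb to Csf2ra within a library, on the log2 scale, was 1.16, 1.35 and 0.94 in ctrl and 1.32 and 1.94 in IR. These ranges overlapped (exact permutation test, two-sided, p = 0.3 over 10 splits).

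Csf1r, at chromosome 18 from 61100598 to 61132149, did not pass the test. It was 3419, 2570 and 2565 in ctrl and 3183 and 2967 in IR, so both IR libraries fell inside the ctrl range. The log2 fold change was 0.12 ± 0.20 (SE, with an adjusted p of 0.822 by limma), and its 95% interval of -0.29 to 0.53 holds changes of up to those sizes in either direction. Without IR replicate 2 the log2 fold change was 0.17. Csf1r shares 873 exon bases with Hmgxb3 on the opposite strand. Hmgxb3 lay between 104 and 219 in ctrl and at 136.5 and 102.5 in IR, far below Csf1r.

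The balance of the granulocyte and the macrophage receptor was read within each library, where scaling between libraries plays no part. The log2 ratio of Csf3r to Csf1r was 0.36, 1.29 and 1.54 in ctrl and 1.79 and 2.65 in IR. Csf3r thus exceeded Csf1r in every library, and most in the IR libraries. The mean difference was 1.15, with an exact two-sided permutation p of 0.2, where 5 libraries cannot give less than 0.1. It ranged from 0.72 without IR replicate 2 to 1.58 without IR replicate 1. Ctrl replicate 1 was the lowest, and without it the difference was 0.80.

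**Figure D2:**
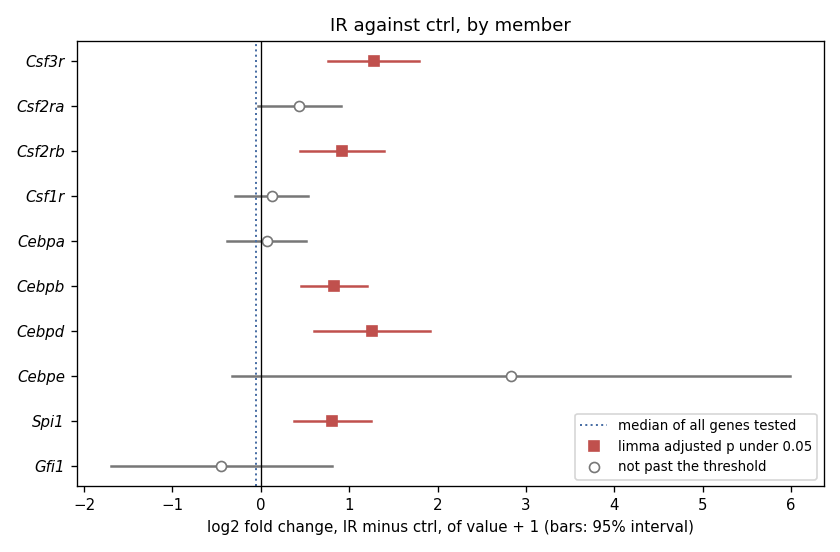
log2 fold change of each member, IR minus ctrl, from limma on log2(value + 1), with its 95% interval as a bar; filled squares passed the threshold and open circles did not, and the dotted line is the median of all genes tested. The 5 called members lie between 0.81 and 1.28, and the interval of Cebpe is the widest, from -0.32 to 5.99.

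Of the C/EBP genes, Cebpb was the most abundant and rose with a narrow error. Cebpb, at chromosome 2 from 167688915 to 167690418, is a single-exon gene, and its promoter is the first sequence above. It shares 312 exon bases with Tmem189 on the opposite strand, for which no row was found by that symbol. The part of Tmem189 in the Cebpb result was not tested. Cebpb was 12479, 14548 and 15968 in ctrl and 21705 and 29561 in IR. Both IR libraries were above every ctrl library, by 1.51-fold and 2.06-fold over the ctrl mean in IR replicates 1 and 2. The log2 fold change was 0.83 ± 0.18 (SE, with an adjusted p of 0.0223 by limma) and just missed the threshold by edgeR (0.84, adjusted p = 0.0527) and with robust estimation off (0.0775). Cebpb also missed it without the mean trend (limma adjusted p = 0.495). With limma it did not pass without ctrl replicates 1, 2 or 3 (0.260, 0.149 and 0.0711) or IR replicate 2 (0.126, at a log2 fold change of 0.61), and it passed without IR replicate 1 (0.00192).

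Cebpd rose by more than Cebpb from a much lower level. Cebpd, at chromosome 16 from 15887286 to 15891031, was 288, 252 and 323 in ctrl and 476 and 993 in IR. The ctrl libraries were close together, IR replicate 1 was above all of them, and IR replicate 2 was higher again, at 3.45 times the ctrl mean against 1.65 times in IR replicate 1. The fitted log2 fold change was 1.26 ± 0.32 (SE, with an adjusted p of 0.0429 by limma), and edgeR gave 1.36 (adjusted p = 0.0444). The limma call was lost without any 1 ctrl library (0.208, 0.188 and 0.127 without replicates 1, 2 and 3) and with robust estimation off (0.0634). It was also lost without a filter (0.0607) and without the mean trend (0.486). The log2 fold change was 0.73 without IR replicate 2 and 1.79 without IR replicate 1. Cebpd shares 562 exon bases with Spidr, a DNA repair gene on the opposite strand. Spidr lay between 166.5 and 287 in ctrl and at 295 and 376 in IR (log2 fold change 0.54 ± 0.35 (SE), limma adjusted p = 0.493), and its part in the Cebpd result was not tested. Lung epithelium also expresses Cebpd. Scgb1a1 and Scgb3a2, like Cebpd, lay above all ctrl libraries in both IR libraries. Both were highest in IR replicate 1, and Cebpd was highest in IR replicate 2. The part of lung epithelium in the Cebpd result was not tested.

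Cebpa, the C/EBP gene of progenitors and of macrophages and lung epithelium, lies on chromosome 7 from 35119293 to 35121928. It was 1315, 1404 and 1468 in ctrl and 1784 and 1196 in IR. The IR libraries lay on opposite sides of the ctrl range, with IR replicate 1 above it and IR replicate 2 below it. The log2 fold change was 0.07 ± 0.22 (SE, with an adjusted p of 0.918 by limma), and its sign turned when libraries were scaled to their totals (-0.05) and without IR replicate 1 (-0.22), and it was 0.36 without IR replicate 2. The log2 ratio of Cebpb to Cebpa within a library was 3.25, 3.37 and 3.44 in ctrl and 3.60 and 4.63 in IR. Both IR libraries lay above all ctrl libraries, with a mean difference of 0.76 (exact two-sided permutation p = 0.1, the smallest that 5 libraries can give), though IR replicate 1 was near the top of the ctrl range.

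Cebpe, the factor of late granulocyte precursors that drives secondary granule genes, was near the limit of detection. It lies on chromosome 14 from 54710360 to 54712174. The recovered reads were 15, 0 and 17 in ctrl and 56 and 35 in IR, and the 0 allows up to 3 reads. The scaled read counts were 12.6, 0 and 12.3 in ctrl and 52.4 and 29.4 in IR, so the groups did not overlap. The log2 fold change of 2.83 ± 1.53 (SE) did not pass (limma adjusted p = 0.391), and edgeR gave 2.27 (adjusted p = 0.590). Without IR replicate 2 limma gave 3.24 (adjusted p = 0.660). Ltf and Ngp, genes of secondary granules, were picked after their values were seen. Ltf was 109 ± 85.6 (SD, n = 3 ctrl) and 343 ± 62.7 (SD, n = 2 IR). Ngp was 70.9 ± 57.5 (SD, n = 3) and 332 ± 238 (SD, n = 2). Neither Ltf nor Ngp passed (limma adjusted p = 0.0644 and 0.0684). Of the 10 neutrophil markers tested, 3 passed by limma, among them Mmp8 (adjusted p = 0.00306), and 7 did not.

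Spi1 encodes PU.1, an ETS factor required for the whole myeloid lineage and also present in B cells, and lies on chromosome 2 from 91082390 to 91115756. It was 2639, 2936 and 3020 in ctrl and 3889 and 6456 in IR. The ctrl libraries were tightly grouped and both IR libraries were above them, by 1.36-fold and 2.25-fold over the ctrl mean. Its log2 fold change of 0.81 ± 0.21 (SE) was at the threshold (limma adjusted p = 0.0494). It missed the threshold with edgeR (0.0644), after scaling to library totals (0.0534) or by median-of-ratios factors (0.0508), and with robust estimation off (0.0775). With limma it also missed without a filter (0.0668), with a minimum of 50 (0.0554), a pseudocount of 0.5 (0.0552) or no mean trend (0.526). The same held without ctrl replicates 1, 2 or 3 (0.301, 0.194 and 0.161). The log2 fold change was 0.44 without IR replicate 2 and 1.17 without IR replicate 1.

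Gfi1, a zinc finger repressor of granulocyte precursors and of lymphoid cells, lies on chromosome 5 from 107716657 to 107726036. It was 109, 82.2 and 89.0 in ctrl and 36.4 and 125 in IR. The IR libraries lay on opposite sides of the ctrl range, as for Cebpa but with IR replicate 2 the higher. The log2 fold change was -0.45 ± 0.61 (SE, with an adjusted p of 0.774 by limma), and it was 0.43 without IR replicate 1 and -1.33 without IR replicate 2.

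**Figure D3:**
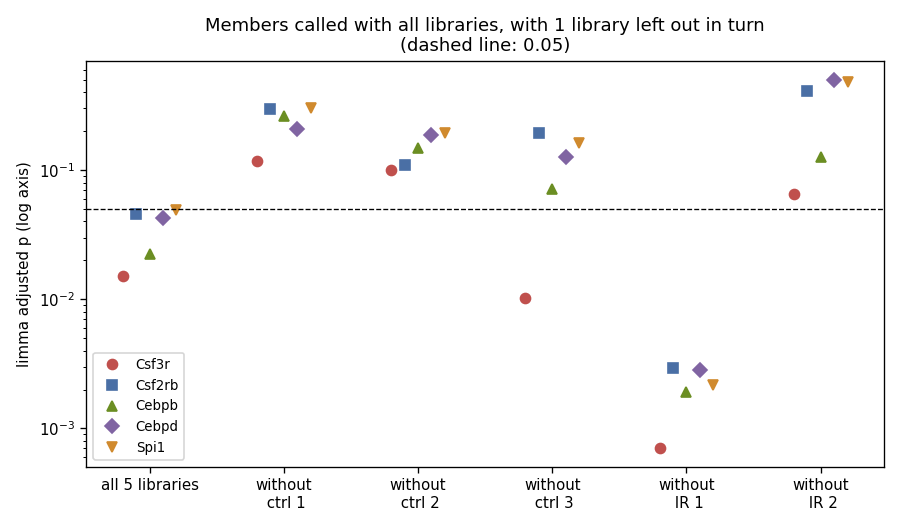
limma adjusted p (log axis) of the 5 called members with all libraries and with each library left out in turn; the dashed line is 0.05. Without ctrl replicate 1 or ctrl replicate 2, 0 passed, and Csf3r passed without ctrl replicate 3. The fits without IR replicate 1 or IR replicate 2 rest on a single IR library.

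The 5 called members had the same order of libraries at the top: IR replicate 2 was highest and IR replicate 1 next. The number called was 0 without ctrl replicate 1 or ctrl replicate 2, where 0.153% and 0.185% of all genes tested were called. It was 1 without ctrl replicate 3, where 0.768% of genes tested were called. The log2 fold changes of the 5 ranged from 0.44 to 0.90 without IR replicate 2 and from 1.05 to 1.79 without IR replicate 1. At an unadjusted p under 0.05 limma gave 5 members without ctrl replicate 1 or 2. Over all genes, 1303 of 12449 and 1423 of 12450 had such a p in these fits. With all 5 libraries edgeR called 2, Csf3r and Cebpd, where 1.03% of genes rose. Where 1 IR library was left out, the remaining one was assumed to vary like the ctrl libraries. Every log2 fold change of the 5 members stayed positive under all 15 alternatives.

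The members differed widely in level when counts were divided by exon length. This length joins the exons of all annotated transcripts of a gene, and how reads were assigned to strands is not given. The order between genes is therefore approximate. In ctrl, Cebpb was highest at 9529 ± 1167 (SD, n = 3) scaled reads per kb of exon, followed by Csf3r at 1677 ± 428 and Spi1 at 1063 ± 74.2. Cebpa (529 ± 29.2) and Csf1r (494 ± 85.2) overlapped each other, as did Csf2ra (302 ± 42.0) and Csf2rb (267 ± 57.1), while Cebpd (76.8 ± 9.41), Gfi1 (29.3 ± 4.37) and Cebpe (6.69 ± 5.79) were lower and apart. In IR the first 5 places were in the same order, with Cebpb at 14431 and 19655 and Csf3r at 3050 and 5160 per kb in replicates 1 and 2. Csf2rb (382 and 649) moved above Csf2ra (387 and 427) and overlapped it and Csf1r (551 and 514). Cebpe (42.2 and 23.7) moved above Gfi1 (11.4 and 39.3), and these overlapped.

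**Figure D4:**
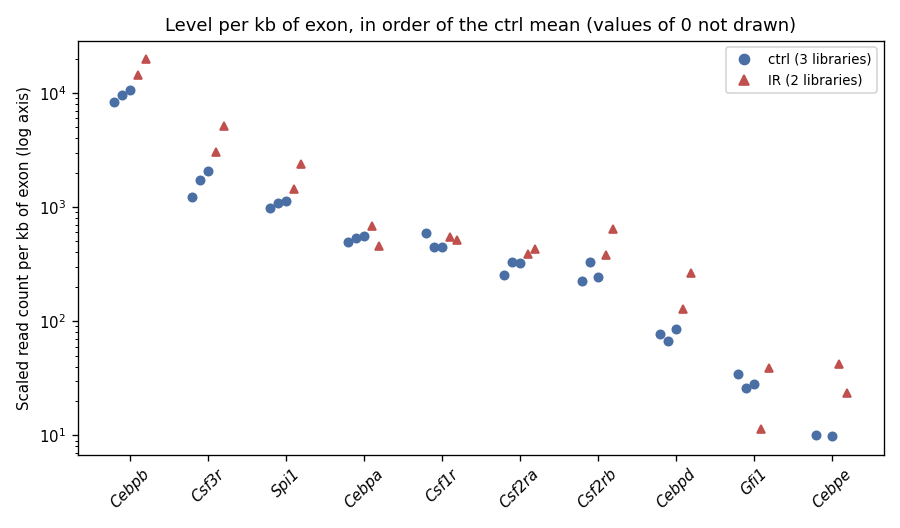
Scaled read count per kb of exon (log axis) of each member in each library, in order of the ctrl mean; circles are ctrl and triangles IR, and the 0 of Cebpe in ctrl replicate 2 is not drawn. Cebpb lies highest in all libraries, and Cebpe lowest in the ctrl libraries.

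Set against the neutrophil markers of the same library, 8 of the 10 members, called or not, were lower in both IR libraries than in all ctrl libraries. A gene that rose by less than the markers is lower by this measure by construction. The median log2 fold change over all genes tested was -0.05, and the share of all genes that were lower by this measure was not computed. The count of 8 is therefore not a result about these members. The mean log2 value of the 10 markers with a row was 8.71, 9.43 and 9.65 in ctrl and 10.57 and 11.37 in IR, an increase of 1.71. Csf3r minus that mean was 3.39, 3.19 and 3.22 in ctrl and 2.85 and 2.82 in IR. The 2 IR libraries nearly coincided and both were below ctrl, with a mean difference of -0.43. Cebpb minus the marker mean was 4.90, 4.397 and 4.32 in ctrl and 3.83 and 3.48 in IR, and Spi1 was 2.65, 2.09 and 1.91 against 1.35 and 1.29. Both genes were lower in IR by this measure, by differences of -0.88 and -0.90. Csf2rb minus the marker mean was 1.96, 1.81 and 1.16 in ctrl and 0.87 and 0.84 in IR. For Csf3r, Cebpb and Spi1 the exact two-sided permutation p was 0.1, the smallest possible, and for Csf2rb it was 0.2. It was also 0.1 for Csf2ra, Csf1r, Cebpa and Gfi1, which were not called. As the direction follows from the measure, these p-values are not a result about the called members. The differences were larger in members that did not pass the test between groups, at -1.27 for Csf2ra, -1.59 for Csf1r, -1.64 for Cebpa and -2.15 for Gfi1. For Cebpd the ranges overlapped (-0.54, -1.45 and -1.31 in ctrl, -1.68 and -1.41 in IR). These ratios were computed after the values had been seen, and the marker list mixes genes of mature and of granule-forming neutrophils.

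**Figure D5:**
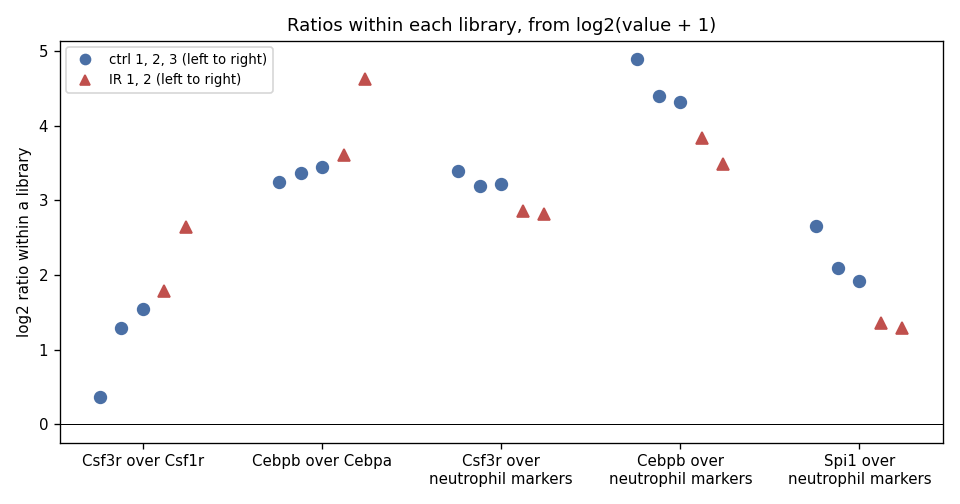
log2 ratios within each library (vertical axis), with circles for ctrl replicates 1 to 3 and triangles for IR replicates 1 and 2, from left to right. Csf3r over Csf1r and Cebpb over Cebpa lie higher in IR, whereas Csf3r, Cebpb and Spi1 over the mean of the neutrophil markers lie lower in IR.

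Other genes of these pathways were counted over 5 lists. Over all 12777 genes tested, limma called 1.14% higher and 0.36% lower, and 1912 had an unadjusted p under 0.05 in either direction. Among genes with a mean of at least 1000, 5.67% were called higher. Of 9 ligands listed, 4 were tested and 0 passed limma, with 2 at an unadjusted p under 0.05 and 0 called by edgeR. Csf1, which encodes the ligand M-CSF, was 507, 808 and 505 in ctrl and 958 and 1341 in IR, with a log2 fold change of 0.94 ± 0.26 (SE, with an adjusted p of 0.0684 by limma). Both IR libraries were above ctrl. Over the alternatives the adjusted p of Csf1 ranged from 0.0218 without IR replicate 1 to 0.515 without the mean trend, and 3 of 15 passed; without IR replicate 2 the log2 fold change was 0.70 (limma adjusted p = 0.387), and edgeR gave an adjusted p of 0.0914. Kitl, the ligand of the receptor KIT, was 27, 68.5 and 5 in ctrl and 93.5 and 89.1 in IR (limma adjusted p = 0.311).

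Of 10 other cytokine receptors tested, Cxcr2, the neutrophil receptor for CXC chemokines, rose and 0 fell. By limma 1 was higher and 1 lower at an unadjusted p under 0.05, and edgeR called 1 higher and 0 lower. Cxcr2 was 824, 1610 and 1674 in ctrl and 3277 and 5215 in IR, with a log2 fold change of 1.66 ± 0.30 (SE, with an adjusted p of 0.0202 by limma), and it did not pass without IR replicate 2 (0.115) or with array weights (0.0772). Cxcr2 also missed without the mean trend (limma adjusted p = 0.475). Of 19 genes of JAK-STAT signalling and its feedback, Pim1, a kinase induced by STAT5, rose and 0 fell. By limma 3 were higher and 1 lower at an unadjusted p under 0.05, and 0 were called by edgeR in either direction. Pim1 was 10368, 10744 and 12719 in ctrl and 15310 and 24425 in IR (log2 fold change 0.78 ± 0.19 (SE), limma adjusted p = 0.0399). Pim1 did not pass limma without a filter (adjusted p = 0.0519) or with a minimum of 50 (0.0563). The same held with robust estimation off (0.105) and without the mean trend (0.529). It did not pass with edgeR (0.0722), without ctrl replicates 1, 2 or 3 (0.309, 0.232 and 0.115) or without IR replicate 2 (0.364).

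Of 29 other lineage transcription regulators, Trib1, a pseudokinase that targets C/EBP alpha protein for degradation, rose and 0 fell. By limma 4 were higher and 2 lower at an unadjusted p under 0.05, and 0 were called by edgeR. Trib1 was 4941, 6574 and 7476 in ctrl and 9160 and 15184 in IR, with a log2 fold change of 0.92 ± 0.22 (SE, with an adjusted p of 0.0391 by limma). Trib1 did not pass limma with robust estimation off (adjusted p = 0.0687) or without the mean trend (0.526). It did not pass with edgeR (0.0585), without ctrl replicates 1, 2 or 3 (0.300, 0.172 and 0.0686) or without IR replicate 2 (0.290). The median log2 fold change of these 29 genes was -0.05, that of all genes.

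Of 24 genes known to be regulated by C/EBP factors or PU.1, 3 rose and 0 fell, and the median log2 fold change was 0.76. By limma 16 were higher and 0 lower at an unadjusted p under 0.05, and edgeR called 2 higher and 0 lower. Both IR libraries were above all ctrl libraries for 16 of the 24, where 15.2% of all genes tested did so. The 3 were Cd14, a receptor for lipopolysaccharide, with a log2 fold change of 1.35 ± 0.23 (SE, with an adjusted p of 0.00449 by limma), Mmp8, the neutrophil collagenase, with 1.40 ± 0.24 (0.00306), and Itgam, which encodes CD11b, with 0.79 ± 0.19 (0.0391). Mmp8, with Mmp9, Ltf, Ngp and Lcn2 of this list, is also on the list of neutrophil markers. Lyz2, the most abundant gene of this list and one of both macrophages and neutrophils, had a log2 fold change of -0.04 (0.942). Itgam did not pass limma without a filter (adjusted p = 0.0515) or with robust estimation off (0.0650). Without the mean trend Cd14, Mmp8 and Itgam all missed (0.475, 0.459 and 0.507). Cd14 did not pass without ctrl replicates 1 or 2 (0.0851 and 0.0845), Mmp8 without these (0.0678 and 0.0517) or IR replicate 2 (0.0584), and Itgam with edgeR (0.0580), without ctrl replicates 1, 2 or 3 (0.260, 0.152 and 0.171) or without IR replicate 2 (0.331).

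Among 5464 genes with a mean of at least 200, those whose pattern over the 5 libraries was most like Csf3r were Trem1, Slfn1 and Entpd1. The root mean square differences of their centred log2 values from Csf3r were 0.046, 0.059 and 0.063. Trem1 was 2856, 3863 and 5042 in ctrl and 7002 and 12286 in IR, and it ran in parallel to Csf3r in each library. The genes most like Cebpb were Taldo1, Anxa2 and Themis2, at 0.047, 0.048 and 0.056, and each had a log2 fold change between 0.84 and 0.85. The genes most like Csf1r were Ppib, Pacs2 and Scap, at 0.019, 0.023 and 0.038, with ctrl replicate 1 the highest library in each. All of these genes were picked by their values in the same 5 libraries. Their like fold changes and library orders therefore follow from the selection.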

How the data were processed

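The deposited table held 1 column per library, with 14462 rows for 14457 symbols. Per the submitters' processing notes, the tools were HISAT2 and HTSeq and the build mm10, with no versions or roles given. How reads were assigned to strands and genes, and how libraries were scaled, is not given in the sources used here. Its values are a signal that the authors made by scaling read counts between libraries, with 1 decimal. Divided by 1 step per library (0.730 to 0.935), between 84.7% and 99.7% of values above 0 were within 0.1 of a whole number, and at least 99.6% within 0.25 in each library. These rounded reads entered only an edgeR 4.0.16 quasi-likelihood test, an alternative chosen after seeing the data, which called 149 genes. Depth was 8013744 to 10172267 reads by this measure.

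The filter kept 12777 genes that reached a value of 10 in 2 or more libraries. limma 3.58.1 (R 4.3.3, statmod 1.5.0) was fitted to log2(value + 1) with a mean trend and robust estimation and no covariate, and p-values were adjusted by Benjamini-Hochberg over all genes kept. Each fold change refers to log2(value + 1), where low genes depend on the pseudocount; for Cebpe limma gave 2.83 and edgeR 2.27. Tests were two-sided. Members, lists and rules were chosen with earlier results of these data known. Named pathway genes were all called genes of a list of 4 or fewer, otherwise the 4 with the smallest p, or the 2 most abundant where 0 passed; Ltf, Ngp, Lyz2 and the genes of the closing observations were chosen after their values were seen. Exon lengths and coordinates are from GENCODE vM21 (GRCm38, the assembly of mm10), and promoters from RefSeq GRCm38.p6. The fits and the step search were tested on simulated data. Alternatives covered scaling, filter, pseudocount, variance estimation, weights and each library left out.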

Additional observations from a re-analysis of the deposited data

How the results depend on the processing

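With all 10 members, the main number called was 5. It was 4 after scaling to library totals, 3 with median-of-ratios factors, with a minimum of 50 or with a pseudocount of 0.5, 2 without a filter and with edgeR on recovered reads, 1 with robust estimation off and 0 without the mean trend (limma, 3 at an unadjusted p under 0.05); leaving out 1 library gave 0 to 5. Over all genes, 192 were called, 314 with a pseudocount of 10 and 0 without the trend (1245 at an unadjusted p under 0.05), and 19 to 1006 with 1 library left out. Over the pathway lists 6 were called, 11 with a pseudocount of 10, 0 without the trend (13 at an unadjusted p under 0.05), 3 with edgeR, and 1 to 22 with 1 library left out. With libraries scaled to their totals, the median over all genes moved by -0.12 (log2), and this setting split the calls into 143 higher and 116 lower, against 146 and 46; with robust estimation off the split was 107 and 22, and with edgeR 131 and 18. Only 3 member values reversed: Cebpa with library totals (-0.054, from 0.07), and, over the fits that left out 1 library, Cebpa without IR replicate 1 (-0.22, up to 0.36 without IR replicate 2) and Gfi1 without IR replicate 1 (0.43, down to -1.33 without IR replicate 2). The causes of these shifts were not tested. Of the Csf3r to Csf1r ratio, every alternative run stayed within 1 SD of the ctrl libraries, from 0.72 to 1.58. No paired analysis was possible because the labels give no replicate numbers that the groups share. Depth limits Cebpe and Gfi1, with at most 56 and 149 reads in a library.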

Other observations

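Among genes not described above, Il34, which encodes the second ligand of CSF1R, had 0 recovered reads in all 3 ctrl libraries, which allows up to 3 reads in each, and 19 and 20 reads in IR replicates 1 and 2. It entered the test through the IR libraries alone, and its change did not pass (limma adjusted p = 0.418). Csf3, which encodes G-CSF, had 2, 0 and 3 reads in ctrl and 0 and 26 in IR and was under the filter. Irf4 and Irf8, factors of lymphoid, dendritic and monocyte lineages, lay lower in both IR libraries than in all ctrl libraries and did not pass. Irf4 was 1192 in the ctrl mean and 684 and 702 in IR (log2 fold change -0.78, limma adjusted p = 0.0735), and Irf8 was 2992 in the ctrl mean and 2572 and 2468 in IR (-0.24, 0.596). Trib2, the relative of Trib1, had a log2 fold change of -1.39 (0.116), opposite in sign to Trib1. Stat5a and Stat5b, which relay cytokine receptor signals, had log2 fold changes of -0.99 (0.173) and 0.37 (0.518).

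The log2 ratio of Cebpb to Spi1 was 2.24, 2.31 and 2.40 in ctrl and 2.48 and 2.19 in IR, a mean difference of 0.02 (exact two-sided permutation p = 0.9). The ratio of Csf3r to Spi1 was 0.74, 1.10 and 1.31 in ctrl and 1.501 and 1.53 in IR (exact permutation p = 0.2), and that of Cebpd to Spi1 was -3.19, -3.54 and -3.22 in ctrl and -3.03 and -2.70 in IR (exact permutation p = 0.1). Csf3r and Cebpd were thus higher relative to Spi1 in both IR libraries, and the ranges of Csf2rb overlapped (-0.70, -0.28 and -0.75 in ctrl, -0.49 and -0.45 in IR). These ratios were chosen after the values had been seen, and they share Spi1.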
